A study of Homo sapiens with 26 samples.

Results

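The expression of 10 genes was described over all groups of a DNA methyltransferase depletion series in NCCIT cells, an embryonic carcinoma line. The genes were TNC, IGFBP7, GUCY2C, THY1, TM4SF1, ANXA1, B3GNT5, B3GNT7, PDZD4 and RASL11B, 10 of the 18417 genes measured. They were selected on these same log2 values, as genes higher in groups that received siRNA against DNMT1 or DNMT3L than in groups alike but without it, so those differences are given as a description, with no test. Transcripts were read with Affymetrix Human Gene 1.0 ST arrays, 26 in all and 2 for each of 13 groups. The study set out to divide the work of DNA methylation among the methyltransferases by depleting them alone and in combination.

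All groups were NCCIT cells grown in serum-containing medium and transfected with siRNA by the PepMute reagent. Groups with DNMT1 siRNA were siDNMT1, siD1+3A (with DNMT3A siRNA), siD1+3B (with DNMT3B siRNA) and siD1+3A+3B (with both). Groups with DNMT3L siRNA were 3A+3B+3L, 3A+3L, 3B+3L and siDNMT3L alone, the combinations named by the further siRNAs they received. The groups siDNMT3A, siDNMT3B and 3A+3B received neither DNMT1 nor DNMT3L siRNA. The controls siNTC-1 and siNTC-2 were transfected with a control siRNA. The time after transfection is not given in the labels, and NCCIT is a single tumour-derived line. Nothing in the labels says whether the 2 arrays of a group came from separate transfections, so the error behind each p-value is that of duplicates and may be technical.

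DNA methylation is copied to new strands by DNMT1 and laid down on unmethylated DNA by DNMT3A and DNMT3B, while DNMT3L has no catalytic activity of its own and acts as a cofactor of DNMT3A and DNMT3B. Methylation of promoters rich in CG dinucleotides usually accompanies silencing, and embryonic carcinoma cells carry high levels of DNMT3B. The 10 genes do not form one pathway. TNC and IGFBP7 encode secreted proteins, tenascin C of the extracellular matrix and a protein that binds insulin-like growth factors. GUCY2C, THY1 and TM4SF1 encode proteins of the plasma membrane: the intestinal receptor guanylate cyclase that makes cGMP when guanylin binds, a GPI-anchored glycoprotein of neurons and fibroblasts, and a protein with 4 membrane spans that is abundant in endothelial and many tumour cells. ANXA1 encodes a protein that binds phospholipid membranes in the presence of calcium. B3GNT5 and B3GNT7 encode Golgi enzymes that add N-acetylglucosamine to sugar chains, B3GNT5 to start lacto-series glycolipids and B3GNT7 to extend the chains of keratan sulfate. PDZD4 encodes a protein with a PDZ domain, and RASL11B a small GTPase of the RAS family. A place at the cell surface therefore fits GUCY2C, THY1 and TM4SF1, whereas the other genes encode secreted, Golgi or intracellular proteins.

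Promoter sequence was available for 7 of the 10 genes, from RefSeq promoters of build GRCh38.p14 that run from 250 bases before a gene's start to 50 after it. Counts of CG dinucleotides, the sites that DNA methyltransferases act on, spanned much of the range of human promoters: ANXA1 had 0 in 300 bases, TM4SF1 4, TNC 18, B3GNT5 31, B3GNT7 37 and RASL11B 43, and PDZD4 had 32 and 49 at its 2 annotated starts. The median over 35116 promoters was 14, with quartiles of 4 and 28, and 4% of them had none. The 250 bases upstream of 4 starts are shown because they run from none to many such sites among genes that were chosen together. They are written 5′ to 3′ on the gene's own strand, with each CG in capitals. ANXA1 lies at chr9:73151615-73151864 on the plus strand, TM4SF1 at chr3:149377650-149377899 on the minus strand, TNC at chr9:115118158-115118407 on the minus strand and RASL11B at chr4:52862067-52862316 on the plus strand.
ANXA1: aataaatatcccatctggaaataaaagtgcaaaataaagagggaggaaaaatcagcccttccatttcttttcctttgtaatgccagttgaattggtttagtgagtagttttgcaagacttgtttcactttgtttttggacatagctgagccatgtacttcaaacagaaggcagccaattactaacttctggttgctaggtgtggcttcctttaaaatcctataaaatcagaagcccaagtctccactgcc
TM4SF1: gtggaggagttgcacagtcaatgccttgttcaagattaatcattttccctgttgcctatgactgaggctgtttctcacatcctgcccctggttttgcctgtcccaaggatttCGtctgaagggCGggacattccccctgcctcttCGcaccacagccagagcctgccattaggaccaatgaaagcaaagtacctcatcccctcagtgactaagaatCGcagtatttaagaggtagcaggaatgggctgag
TNC: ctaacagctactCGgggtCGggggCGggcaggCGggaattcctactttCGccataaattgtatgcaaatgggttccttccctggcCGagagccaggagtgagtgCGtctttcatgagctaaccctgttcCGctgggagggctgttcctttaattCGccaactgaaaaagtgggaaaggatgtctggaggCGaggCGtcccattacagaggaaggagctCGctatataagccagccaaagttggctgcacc
RASL11B: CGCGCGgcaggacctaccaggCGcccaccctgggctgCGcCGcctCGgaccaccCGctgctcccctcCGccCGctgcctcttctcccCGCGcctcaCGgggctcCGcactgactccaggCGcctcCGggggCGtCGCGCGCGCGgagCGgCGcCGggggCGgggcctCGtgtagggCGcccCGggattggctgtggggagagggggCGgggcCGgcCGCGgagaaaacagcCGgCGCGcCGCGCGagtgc
In the full 300-base windows, searched on both strands, the GC box GGGCGG was found for 6 of the 7 genes (all but ANXA1), against 45% of all promoters. ANXA1 held the TATA motif TATAAA, which 11.5% of promoters hold. The TEAD motif GGAATG was found in TM4SF1 alone (14% of promoters). Neither the AP-1 motif TGANTCA (7.7% of promoters) nor the E-box CACGTG (7.3%) was found in these windows. Methylation itself was not measured in the data used here.

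The deposited values are log2 expression values with array medians from 6.28 to 6.33, and duplicates correlated at 0.9973 to 0.9989 across genes. Along the first principal component of the array features without a gene symbol, the 4 groups siDNMT1, siDNMT3L, siDNMT3B and siNTC-1 (8 arrays) stood apart from the other 9 groups (18 arrays). No label names a batch, and these sets of arrays are inferred from the values. Comparisons were therefore made within a set unless stated. Relative to the control group of its own set, DNMT1 transcript stood at 37.4% to 59.5% in the groups that received its siRNA, DNMT3L at 68.3% to 79.7%, DNMT3A at 67.0% to 78.5% and DNMT3B at 50.3% to 99.4%, with 99.4% in 3A+3B+3L. In bulk samples, fewer cells carrying a transcript and less RNA per cell cannot be told apart. Of 9 measured markers of embryonic carcinoma and pluripotent cells, SOX2 had group means of 12.22 to 12.42 log2, LIN28A of 11.83 to 12.14, ZFP42 of 9.52 to 10.32 and TERT, the weakest of the 9, of 6.95 to 7.84. The 9 include DNMT3B, itself a target of siRNA here, with group means of 10.99 to 12.10. In siDNMT1 against siNTC-1, 2 of the 9 were higher and 2 lower, where 9.26% and 10.6% of all genes were. L1TD1 (0.37) and DPPA4 (0.16) were higher, and TERT (-0.35) and LIN28B (-0.21) lower. POU5F1, NANOG and TDGF1 were not analysed here. The 11 fibroblast and mesenchyme markers, which include genes often found with THY1 and TNC, had group means between 4.12 and 6.33.

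TNC had the widest range of the 10 genes. Its arrays read 9.88 and 9.76 log2 in siDNMT1, 9.37 and 9.42 in siDNMT3L and 9.01 and 8.88 in siDNMT3B, against 8.04 and 7.97 in siNTC-1. In the other set of arrays they read 8.67 and 8.67 in siD1+3B, 8.42 and 8.39 in siD1+3A, 8.30 and 8.36 in siD1+3A+3B, 8.77 and 8.75 in 3A+3B+3L, 8.29 and 8.40 in 3A+3L, 7.93 and 7.93 in 3B+3L, 7.92 and 7.96 in 3A+3B and 8.07 and 7.99 in siDNMT3A, against 7.45 and 7.39 in siNTC-2. Every depletion was thus above the control of its own set on both arrays, with siDNMT1 at the top and 3B+3L level with 3A+3B. Of the 12 steps down the order of group means, 4 joined groups whose arrays overlapped, and the largest gap between duplicates was 0.13.

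IGFBP7 was lower in both controls than in any depletion. Its arrays read 8.64 and 8.72 in siDNMT1, 8.41 and 8.30 in siDNMT3L and 8.38 and 8.47 in siDNMT3B, against 6.85 and 6.83 in siNTC-1. In the larger set the depletions lay between 8.20 and 8.62 on single arrays, against 7.67 and 7.90 in siNTC-2. The 11 depletion groups had means from 8.21 (3A+3B) to 8.68 (siDNMT1), and no depletion array reached down to a control array. The controls themselves differed by 0.94.

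GUCY2C was highest in siDNMT3L, with 7.95 and 7.81, and in siDNMT1, with 7.84 and 7.75, whose arrays overlapped. siDNMT3B followed with 7.28 and 7.42, against 6.54 and 6.39 in siNTC-1. In the larger set the arrays read 7.0 and 7.03 in 3A+3B+3L, 6.56 and 6.87 in 3A+3L, 6.41 and 6.58 in siD1+3B, 6.33 and 6.33 in 3B+3L, 6.28 and 6.25 in siD1+3A, 6.26 and 6.22 in siD1+3A+3B, 6.43 and 6.22 in 3A+3B and 6.01 and 6.14 in siDNMT3A, against 5.66 and 5.58 in siNTC-2. The 3 DNMT1 combinations overlapped 3A+3B and lay above siDNMT3A, and 3A+3B+3L stood above all other groups of the set.

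THY1 was highest in a group with neither DNMT1 nor DNMT3L siRNA. Its arrays read 10.83 and 10.88 in siDNMT3B, above 10.25 and 10.43 in siDNMT1 and 10.27 and 10.19 in siDNMT3L, against 9.19 and 9.29 in siNTC-1. The order went on with siD1+3B (10.70 and 10.68) and 3A+3B+3L (10.54 and 10.51), both apart from their neighbours. Then came a run of groups from 3A+3L (mean 10.36) to siDNMT3L (10.23) whose arrays overlapped at each step. siNTC-2, with 9.49 and 9.52, was below all depletions.

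TM4SF1 was weak, and it was high in the groups with DNMT1 siRNA and in no others. Its arrays read 6.23 and 5.96 in siDNMT1, 5.85 and 5.67 in siD1+3A, 5.54 and 5.66 in siD1+3A+3B and 5.56 and 5.57 in siD1+3B. All other groups lay lower, with siNTC-1 at 5.46 and 5.30, siNTC-2 at 5.10 and 5.31, and the 4 DNMT3L siRNA groups between 5.07 and 5.22. No detection call is given in the table, and this gene falls among the 40% of genes with the lowest mean.

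ANXA1 was highest in siDNMT3L, at 9.01 and 8.97, followed by siDNMT1 at 8.44 and 8.34 and siDNMT3B at 8.36 and 8.40, against 7.63 and 7.71 in siNTC-1. In the larger set its arrays read 7.75 and 7.85 in 3A+3B+3L, 7.62 and 7.82 in 3A+3L, 7.54 and 7.57 in siD1+3A, 7.49 and 7.51 in siDNMT3A, 7.42 and 7.44 in siD1+3B, 7.22 and 7.25 in 3A+3B, 7.15 and 7.06 in siD1+3A+3B and 6.98 and 7.05 in 3B+3L, against 7.23 and 7.12 in siNTC-2. Both 3A+3B and siD1+3A+3B overlapped siNTC-2, and 3B+3L lay below it.

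The Golgi enzymes parted ways in siDNMT1. B3GNT5 read 7.72 and 7.74 in siDNMT1, 8.26 and 8.37 in siDNMT3L and 8.24 and 8.25 in siDNMT3B, against 7.17 and 7.28 in siNTC-1. Its highest means were 8.54 in 3A+3B+3L and 8.47 in 3A+3L, against 7.54 in siNTC-2. B3GNT7 read 6.74 and 6.73 in siDNMT1, 7.92 and 7.86 in siDNMT3L and 7.35 and 7.45 in siDNMT3B, against 6.87 and 6.99 in siNTC-1. So both B3GNT7 arrays of siDNMT1 were below both control arrays. In the larger set B3GNT7 was highest in 3A+3B+3L (7.42 and 7.39), 3B+3L (7.34 and 7.46) and 3A+3L (7.23 and 7.09), the last of which overlapped siD1+3B (7.12 and 7.08), against 6.56 and 6.72 in siNTC-2.

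Of the intracellular proteins, PDZD4 was highest in siD1+3B, with 8.64 and 8.70. It read 8.54 and 8.57 in siDNMT1, 8.37 and 8.26 in siDNMT3L and 8.51 and 8.42 in siDNMT3B, against 6.72 and 7.01 in siNTC-1. The groups 3A+3B (7.30 and 7.37) and siDNMT3A (7.37 and 7.31) lay below siNTC-2 (7.58 and 7.44). RASL11B read 8.33 and 8.26 in siDNMT1, 8.50 and 8.46 in siDNMT3L and 8.36 and 8.43 in siDNMT3B, against 7.85 and 7.50 in siNTC-1, the widest gap between duplicates of any of the 10 genes. In the larger set RASL11B was highest in 3A+3B+3L (8.23 and 8.20) and 3A+3L (8.17 and 8.23), and 3A+3B (7.21 and 7.15) and siDNMT3A (7.21 and 7.13) lay below siNTC-2 (7.28 and 7.28).

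**Figure D1:**
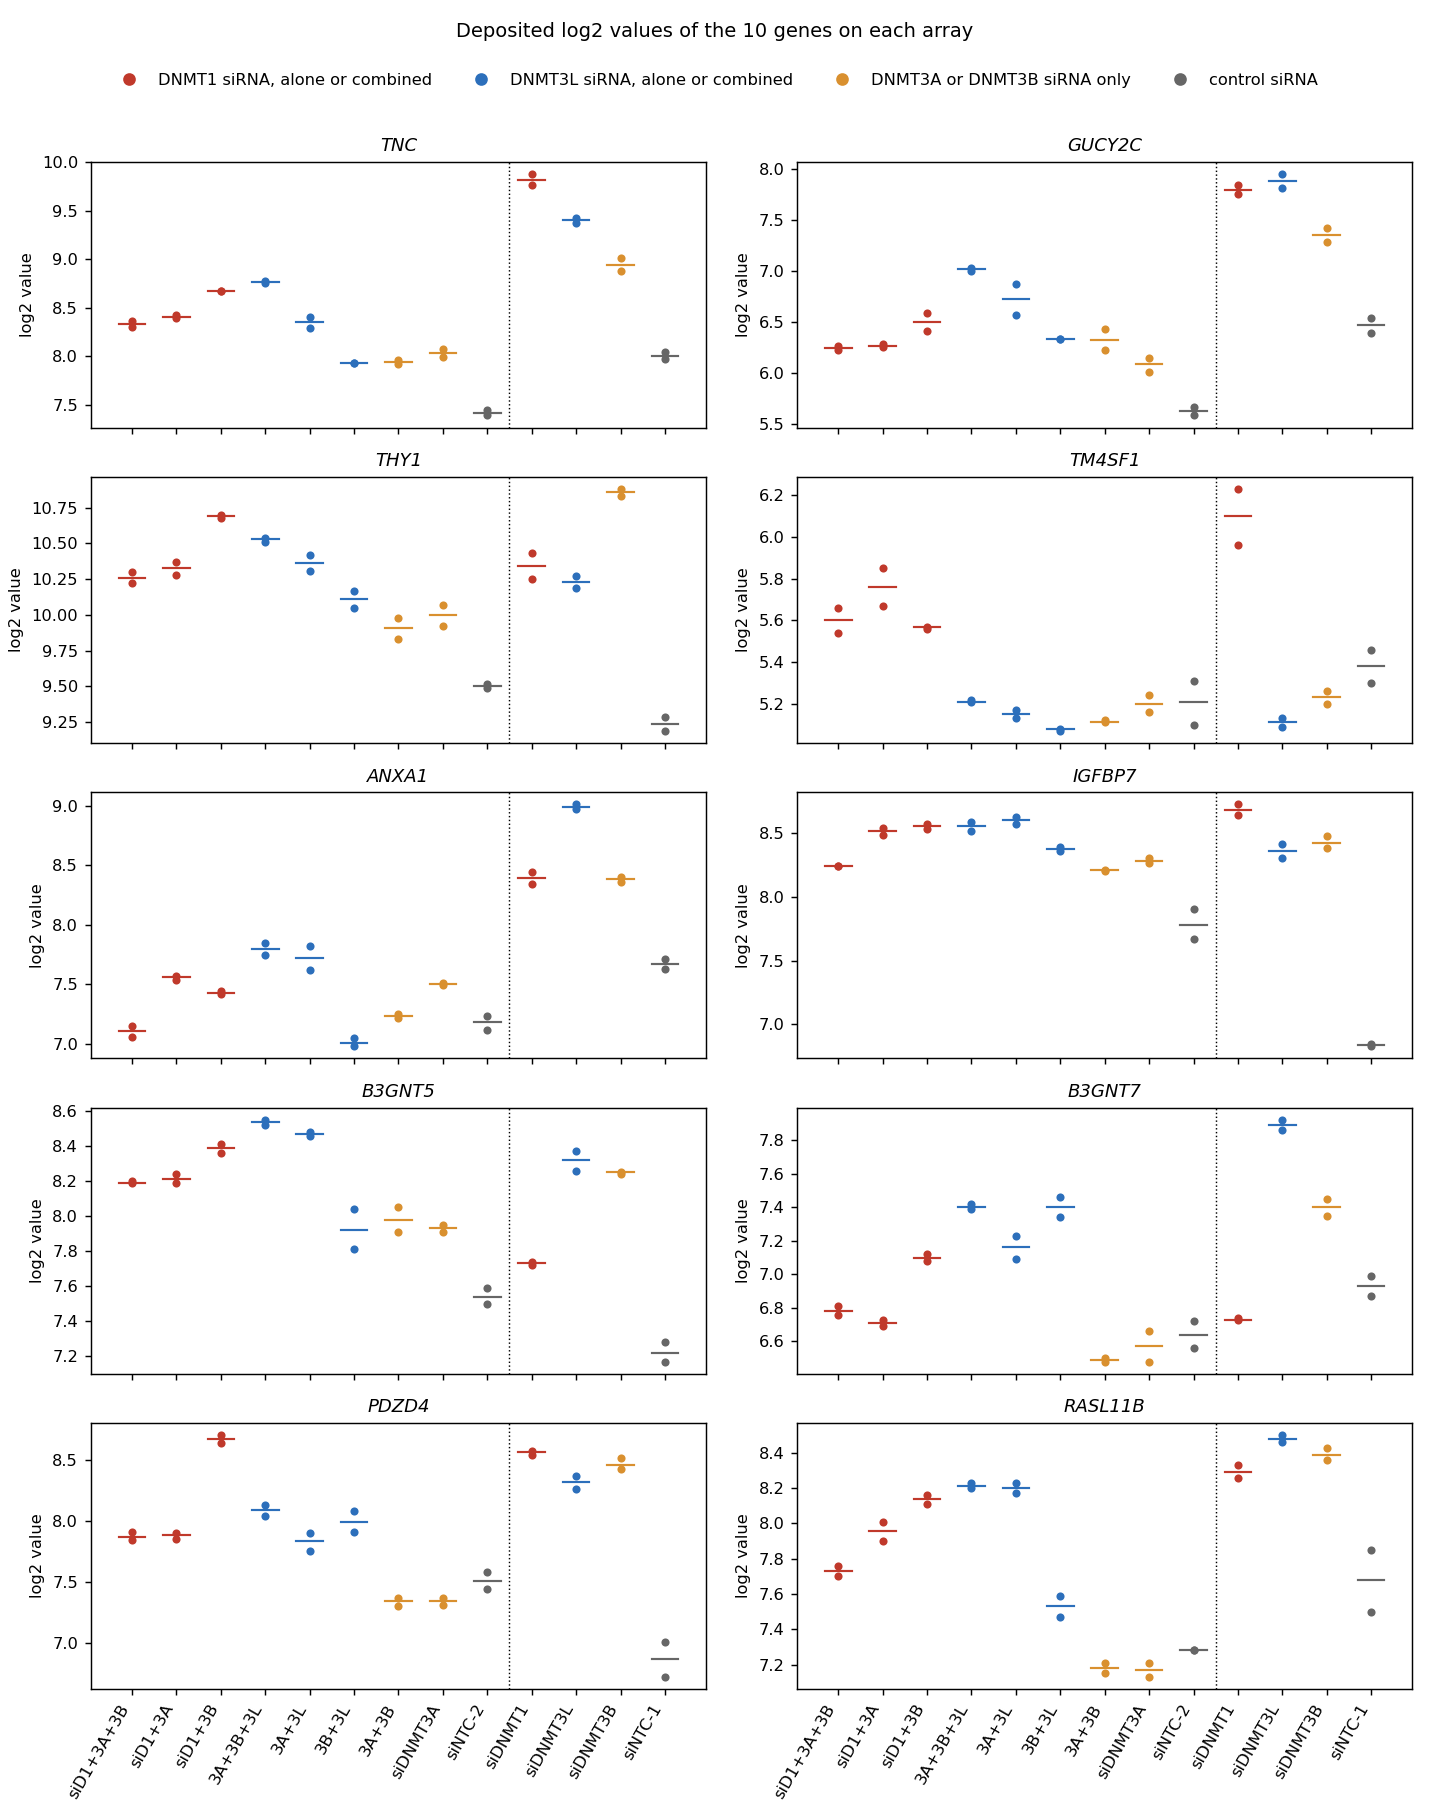
Log2 values of the 10 genes (vertical axes, own scale for each gene) in the 13 groups (horizontal axis). Points are single arrays, bars the means of 2 arrays, colours mark the siRNA received, and the dotted line parts the 9 groups of the larger set of arrays (left) from the 4 of the smaller (right). In the smaller set siDNMT3B stands with siDNMT1 and siDNMT3L above siNTC-1 for most genes, and TM4SF1 is high in the DNMT1 siRNA groups.

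By their medians, the differences that chose the genes were largest with single siRNAs. In siDNMT1 against siNTC-1 they ran from -0.20 (B3GNT7) to 1.84 (IGFBP7) with a median of 0.91, and in siDNMT3L against siNTC-1 from -0.27 (TM4SF1) to 1.52 (IGFBP7) with a median of 1.21. The medians over all genes were -0.03 and -0.02. IGFBP7 was 3.58-fold, TNC 3.52-fold and PDZD4 3.22-fold higher in siDNMT1 than in siNTC-1. In siDNMT3L the largest folds over siNTC-1 were 2.86 for IGFBP7, 2.73 for PDZD4 and 2.67 for GUCY2C. These values chose the genes, so no test of them is given.

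The medians over the 10 genes were smaller in the combinations: 0.31 in siD1+3A against siDNMT3A, 0.43 in 3A+3L against siDNMT3A, 0.32 in siD1+3A+3B against 3A+3B and 0.66 in 3A+3B+3L against 3A+3B. RASL11B did not follow the medians, with 1.03 in 3A+3L against siDNMT3A and 1.04 in 3A+3B+3L against 3A+3B, and 0.81 in siDNMT3L against siNTC-1. GUCY2C differed by -0.09 and ANXA1 by -0.13 in siD1+3A+3B against 3A+3B, while in siDNMT1 both were above siNTC-1 (by 1.33 and 0.72). Against siNTC-2 the median was 0.85 in siD1+3B, with all 10 genes higher, and 0.50 in 3B+3L. In 3B+3L, B3GNT7 differed most (0.76) and RASL11B by 0.25, while ANXA1 (-0.17) and TM4SF1 (-0.13) were below siNTC-2.

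The genes were not higher in every pair of groups. Against siDNMT3B, their single-siRNA counterpart, siD1+3B was lower for 6 of the 10 genes and 3B+3L for 9, with B3GNT7 level to 2 decimals, ANXA1 at -0.95 and -1.37, and GUCY2C at -0.85 and -1.01. These pairs cross the sets of arrays, in which 33.8% and 42.7% of all genes had an adjusted p under 0.05 in limma, in either direction, and the part of the sets in these values cannot be told apart from that of the siRNA. B3GNT7 was below siNTC-1 in siDNMT1, and TM4SF1 was below it in siDNMT3L, so each of them was higher with only 1 of the single siRNAs. DNMT3L transcript was itself lower in siDNMT1 than in siNTC-1 (5.56 and 5.97 log2, a difference of -0.40 ± 0.12 SE, adjusted p = 0.0203 in limma). Its part in the values of the 10 genes was not tested.

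**Figure D2:**
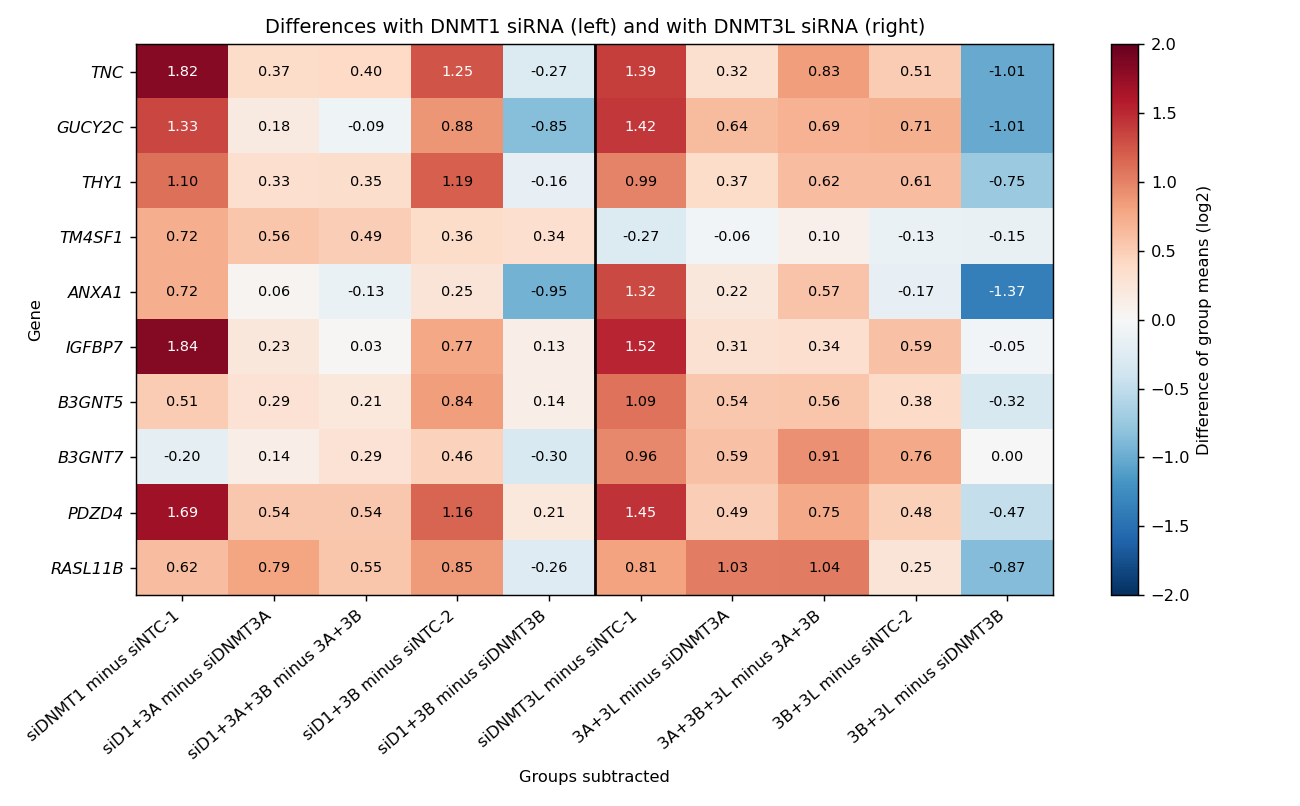
Differences of group means (log2, colour scale and printed values) of the 10 genes (rows) in the 10 pairs of groups behind their choice (columns), DNMT1 siRNA on the left of the line and DNMT3L siRNA on the right. Values are descriptive. The columns against siDNMT3B hold mostly negative values, and B3GNT7 and TM4SF1 differ in sign between the left and right sides for the single siRNAs.

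Comparisons other than those behind the choice were tested with limma over all 26 arrays, with p-values adjusted over all 18417 genes, and a gene is called at an adjusted p under 0.05. They share arrays with the choice on one side or both, which can favour differences among genes picked for being high there. Those of DNMT1 against DNMT3L siRNA, and the tests between these backgrounds, are made up wholly of differences that the choice used. Their p-values and counts are therefore not independent of the choice. In all of them n was 2 arrays a group, and a difference is given ± its standard error.

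The first question was whether DNMT3B siRNA moved the same genes. In siDNMT3B against siNTC-1, 9 of the 10 genes were higher, where 11.8% of all genes were, and TM4SF1 was not called (-0.16 ± 0.08, adjusted p = 0.196). THY1 rose by 1.62 ± 0.07 (adjusted p = 4.2e-11), PDZD4 by 1.60 ± 0.08 (adjusted p = 4.9e-10) and IGFBP7 by 1.58 ± 0.06 (adjusted p = 1.3e-11). B3GNT5 rose by 1.02, TNC by 0.94, GUCY2C by 0.88, RASL11B by 0.72, ANXA1 by 0.71 and B3GNT7 by 0.47, with adjusted p-values from 2.9e-09 to 9.1e-05. The median of the 10 was 0.91, against -0.02 over all genes. No array left out in turn ended any of the 9 calls. The siNTC-1 arrays are also those that siDNMT1 and siDNMT3L were set against in the choice of the genes. With siNTC-2 as the control, across the sets, the 9 genes were again higher, now led by GUCY2C (1.73), TNC (1.53) and THY1 (1.35), with IGFBP7 higher by 0.64. Both siNTC-2 and siDNMT3B were also references in the choice, so this comparison is not independent of it either. DNMT3L transcript in siDNMT3B was 5.65 against 5.97 in siNTC-1 (-0.31 ± 0.12, adjusted p = 0.0586). Of the 11 fibroblast and mesenchyme markers, 0 were higher and 1 was lower in siDNMT3B.

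Adding DNMT3B siRNA to groups that already had DNMT3A siRNA moved few of the genes. In 3A+3B against siDNMT3A, 0 of the 10 were called in limma (0.0923% of all genes were, in either direction), with differences from -0.26 for ANXA1 to 0.25 for GUCY2C, the 2 genes with an unadjusted p under 0.05. In siD1+3A+3B against siD1+3A, ANXA1 fell by 0.45 ± 0.06 (adjusted p = 0.00259) and was the one gene called, where 0.391% of all genes were lower. In 3A+3B+3L against 3A+3L, TNC rose by 0.42 ± 0.06 (adjusted p = 0.00822) and was again the one gene called, where 0.0326% of all genes were higher. The TNC call was lost without any one of the 4 arrays (differences from 0.36 to 0.47, adjusted p from 0.0611 to 0.194). The ANXA1 call was lost without siD1+3A+3B replicate 2 (-0.40, adjusted p = 0.0568). Both were lost in a fit of the 4 arrays alone (adjusted p = 0.579 for TNC and 0.242 for ANXA1). The target itself moved less in these groups: DNMT3B fell by 0.99 in siDNMT3B, but by 0.58 in 3A+3B against siDNMT3A and by 0.41 in siD1+3A+3B against siD1+3A, and differed by -0.29 (adjusted p = 0.106) in 3A+3B+3L against 3A+3L. Whether that difference in knockdown bears on the genes was not tested.

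The response of TNC and ANXA1 to added DNMT3B siRNA differed between the DNMT1 and the DNMT3L background. The difference of the 2 differences, DNMT1 background minus DNMT3L background, was -0.48 ± 0.08 for TNC (adjusted p = 0.0232) and -0.53 ± 0.09 for ANXA1 (adjusted p = 0.0251), 2 of the 10 genes where 0.0217% of all genes were called lower. Both calls were lost in 7 of the 8 fits without 1 array, with adjusted p from 0.0685 to 0.158 for TNC and from 0.0534 to 0.212 for ANXA1. For both genes the exception was the fit without 3A+3L replicate 2. They were also lost with the 8 arrays fitted alone (adjusted p = 0.207 for TNC and 0.324 for ANXA1).

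**Figure D3:**
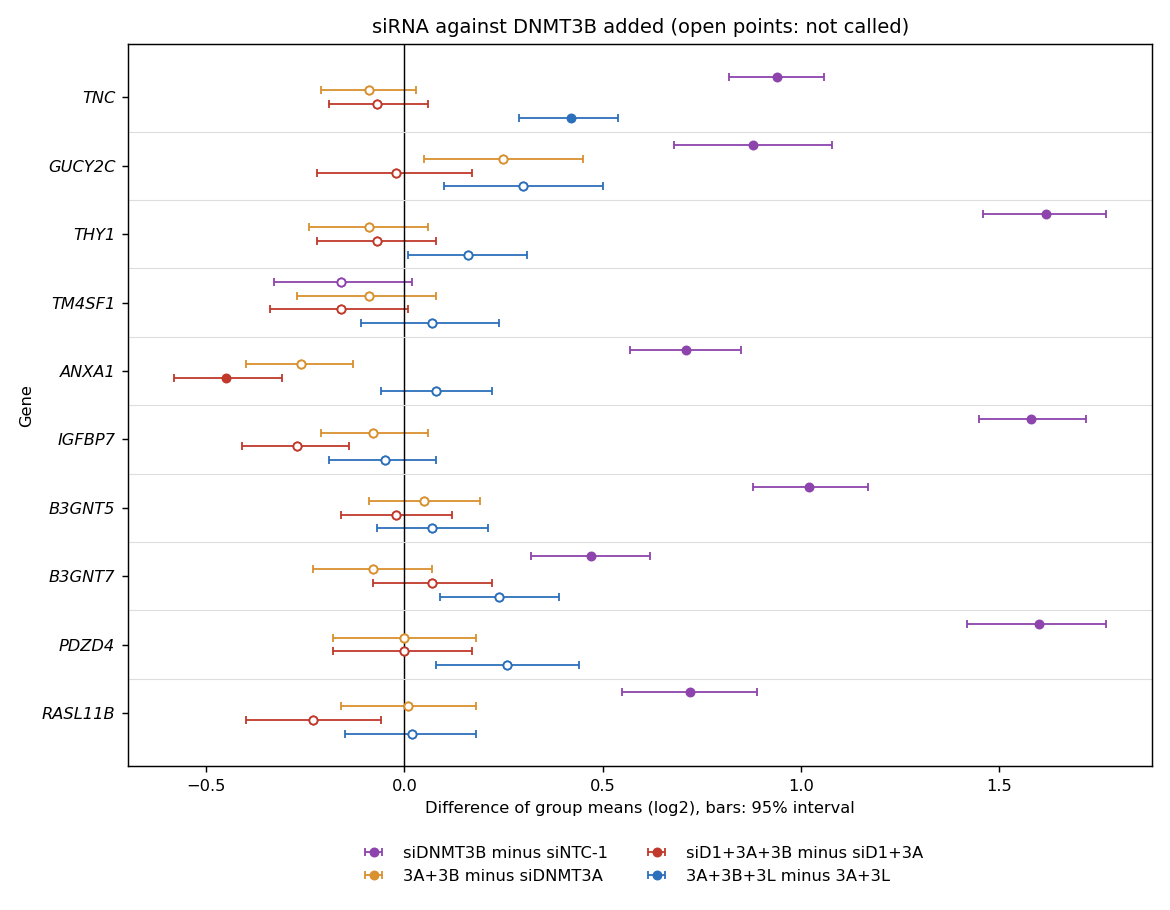
Differences of group means (horizontal axis, log2, with unadjusted 95% intervals) of the 10 genes (vertical axis) in 4 pairs of groups that differ by DNMT3B siRNA. Filled points passed an adjusted p under 0.05 and open points did not. The purple points, siDNMT3B minus siNTC-1, lie furthest right for all genes but TM4SF1.

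Where DNMT3B siRNA was also present, adding DNMT3A siRNA lowered TNC, THY1, ANXA1 and RASL11B beside DNMT1 siRNA. Beside DNMT3L siRNA the same 4 genes were raised. Both siD1+3B and 3A+3B+3L were groups in which the genes were chosen for being high. That can favour a fall from the first and a rise to the second, so the counts below are not independent of the choice. In 3A+3B+3L against 3B+3L, 6 of the 10 genes were higher, where 7.59% of all genes were: TNC by 0.83 ± 0.06 (adjusted p = 1.4e-08), ANXA1 by 0.79 ± 0.06 (adjusted p = 1.2e-07), GUCY2C by 0.69, RASL11B by 0.69, B3GNT5 by 0.61 and THY1 by 0.42. In siD1+3A+3B against siD1+3B, 7 of the 10 were lower, where 1.68% of all genes were, led by PDZD4 (-0.80 ± 0.08, adjusted p = 3.1e-05) and THY1 (-0.44 ± 0.07, adjusted p = 0.00277). The other lower genes were RASL11B (-0.41), TNC (-0.34), ANXA1 (-0.32), B3GNT7 (-0.32) and IGFBP7 (-0.31). PDZD4, the gene that fell most there, differed by 0.09 ± 0.08 (adjusted p = 0.529) in 3A+3B+3L against 3B+3L.

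The test of this contrast, DNMT1 background minus DNMT3L background, called 9 of the 10 genes lower, where 6.37% of all genes were. It is made up of differences that chose the genes, so this count is not independent of the choice. The differences were -1.17 ± 0.08 for TNC (adjusted p = 2.6e-08), -1.11 ± 0.09 for ANXA1 (adjusted p = 2.0e-07) and -1.09 ± 0.11 for RASL11B (adjusted p = 3.1e-06), then -0.95 for GUCY2C, -0.89 for PDZD4, -0.85 for THY1, -0.80 for B3GNT5, -0.49 for IGFBP7 and -0.32 for B3GNT7. TM4SF1 was not called (-0.10 ± 0.12, adjusted p = 0.665). Among these calls only that of B3GNT7 was lost without 1 array, in 7 of 8 fits (adjusted p from 0.0617 to 0.161), the exception being the fit without 3B+3L replicate 2. It was also lost with a trended and robust variance prior (adjusted p = 0.0575). The 6 calls of 3A+3B+3L over 3B+3L held without any array. In siD1+3A+3B against siD1+3B, the calls of IGFBP7, B3GNT7 and RASL11B were lost without any one of the 4 arrays (adjusted p from 0.0529 to 0.154). ANXA1 was lost without either siD1+3B array or without siD1+3A+3B replicate 2 (adjusted p from 0.0718 to 0.128), and TNC without siD1+3A+3B replicate 1 (adjusted p = 0.0606). PDZD4 alone passed with those 4 arrays fitted alone.

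Other measures moved with these groups. The first principal component of the genes, which held 49.5% of the variance, was 3.85 and 4.44 on the 3A+3B+3L arrays, against 17.67 and 20.18 on those of 3B+3L, and 7.77 and 9.51 on the siD1+3A+3B arrays, against 3.40 and 3.82 on those of siD1+3B. This component also parted the sets of arrays. The control siNTC-2 stood at 18.12 and 18.13 on it, near 3B+3L. DNMT3B transcript was higher in 3A+3B+3L than in 3B+3L by 0.45 ± 0.06 (adjusted p = 4.3e-05). Their part in the values of the 10 genes was not tested.

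With DNMT3A siRNA alone, 6 of the 10 genes were higher in siDNMT3A than in siNTC-2, where 8.44% of all genes were, and 0 were lower, where 7.36% were. TNC rose by 0.61 ± 0.06 (adjusted p = 2.2e-06), IGFBP7 by 0.50, THY1 by 0.50, GUCY2C by 0.46, B3GNT5 by 0.38 and ANXA1 by 0.32. The calls held without any one array but not with every control. With siNTC-1 in place of siNTC-2, across the sets, GUCY2C (-0.39, adjusted p = 0.00247) and ANXA1 (-0.17, adjusted p = 0.0398) were lower, TNC was no longer called (0.03, adjusted p = 0.747), PDZD4 was higher by 0.47, and B3GNT7 (-0.36) and RASL11B (-0.51) were lower. With the mean of both controls GUCY2C (0.03, adjusted p = 0.794) and ANXA1 (0.08, adjusted p = 0.333) were not called. IGFBP7, THY1 and B3GNT5 were higher in siDNMT3A than in either control. Both controls and siDNMT3A were references in the choice of the genes, so these counts and p-values are not independent of it.

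**Figure D4:**
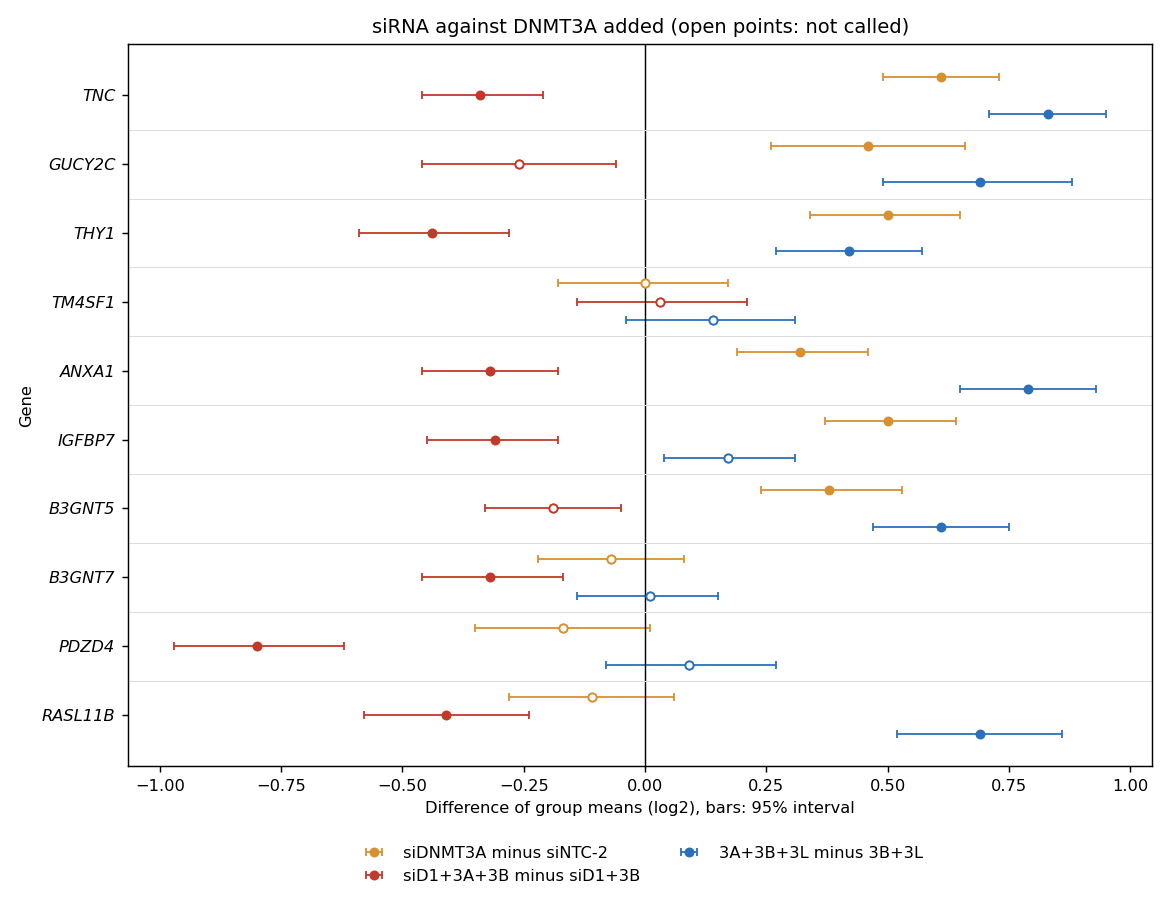
Differences of group means (horizontal axis, log2, with unadjusted 95% intervals) of the 10 genes (vertical axis) in 3 pairs of groups that differ by DNMT3A siRNA. Filled points passed an adjusted p under 0.05 and open points did not. The red points, beside DNMT1 and DNMT3B siRNA, lie left of 0 for all genes but TM4SF1. The blue points, beside DNMT3L and DNMT3B siRNA, lie at 0 or right of it.

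DNMT1 and DNMT3L siRNA were also set against each other in the same background. Each of these comparisons is a difference between differences that chose the genes, so its p-values are not independent of the choice. In siDNMT1 against siDNMT3L, TM4SF1 was higher by 0.99 ± 0.08 (adjusted p = 5.7e-07), TNC by 0.43 ± 0.06 (adjusted p = 1.2e-04) and IGFBP7 by 0.32 ± 0.06 (adjusted p = 0.0028). B3GNT7 was lower by 1.16 on the log2 scale (a difference of -1.16 ± 0.07, adjusted p = 1.2e-08), ANXA1 differed by -0.60 ± 0.06 (adjusted p = 1.0e-05) and B3GNT5 by -0.59 ± 0.07 (adjusted p = 2.1e-05). These 3 higher and 3 lower genes compare with 6.23% and 6.33% of all genes, and GUCY2C, THY1, PDZD4 and RASL11B were not called. With the 4 arrays fitted alone, TNC (adjusted p = 0.0779) and IGFBP7 (adjusted p = 0.12) were no longer called.

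Beside DNMT3B siRNA most of the genes favoured DNMT1. In siD1+3B against 3B+3L, 7 of the 10 were higher, where 8.43% of all genes were: TNC by 0.74 ± 0.06 (adjusted p = 6.8e-08), PDZD4 by 0.68, RASL11B by 0.61, THY1 by 0.58, TM4SF1 by 0.49, B3GNT5 by 0.46 and ANXA1 by 0.42. B3GNT7 was lower (-0.30 ± 0.07, adjusted p = 0.00537), where 11.9% of all genes were lower, and this call was lost without 3B+3L replicate 2 (-0.24, adjusted p = 0.0757). With DNMT3A siRNA present as well the order turned. This turn is the same contrast, on the same arrays, as the test of added DNMT3A siRNA between backgrounds above. It is therefore no separate result, and the counts on either side of it are not independent of the choice. In siD1+3A+3B against 3A+3B+3L, 7 of the 10 were lower, where 0.863% of all genes were, namely GUCY2C (-0.78 ± 0.09, adjusted p = 1.2e-04), ANXA1 (-0.69), B3GNT7 (-0.62), RASL11B (-0.49), TNC (-0.43), B3GNT5 (-0.34) and IGFBP7 (-0.31). TM4SF1 was the one gene higher (0.38 ± 0.08, adjusted p = 0.0227, where 0.89% of all genes were). The calls of TM4SF1, IGFBP7 and B3GNT5 were lost without any one of the 4 arrays (adjusted p from 0.0681 to 0.198), and that of RASL11B without replicate 1 of either group (adjusted p = 0.0547 and 0.0531). GUCY2C and B3GNT7 alone passed with those 4 arrays fitted alone.

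In siD1+3A against 3A+3L, 1 of the 10 genes was higher and 2 were lower, where 0.51% and 0.233% of all genes were. TM4SF1 was higher by 0.61 ± 0.08 (adjusted p = 0.00139), and B3GNT7 (-0.45 ± 0.07, adjusted p = 0.00451) and GUCY2C (-0.45 ± 0.09, adjusted p = 0.0298) were lower. GUCY2C was lost without either siD1+3A array or without 3A+3L replicate 2 (-0.30 in that last case, adjusted p from 0.15 to 0.248). B3GNT7 was lost without either siD1+3A array or without 3A+3L replicate 1 (adjusted p from 0.0528 to 0.0991). All 3 were lost with the 4 arrays fitted alone (adjusted p from 0.0589 to 0.219). TM4SF1 was thus called higher with DNMT1 than with DNMT3L siRNA, and B3GNT7 lower, in each of the 4 backgrounds over all arrays. Both genes were chosen on the differences that make up these comparisons, so the repeat over backgrounds is not independent of the choice.

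**Figure D5:**
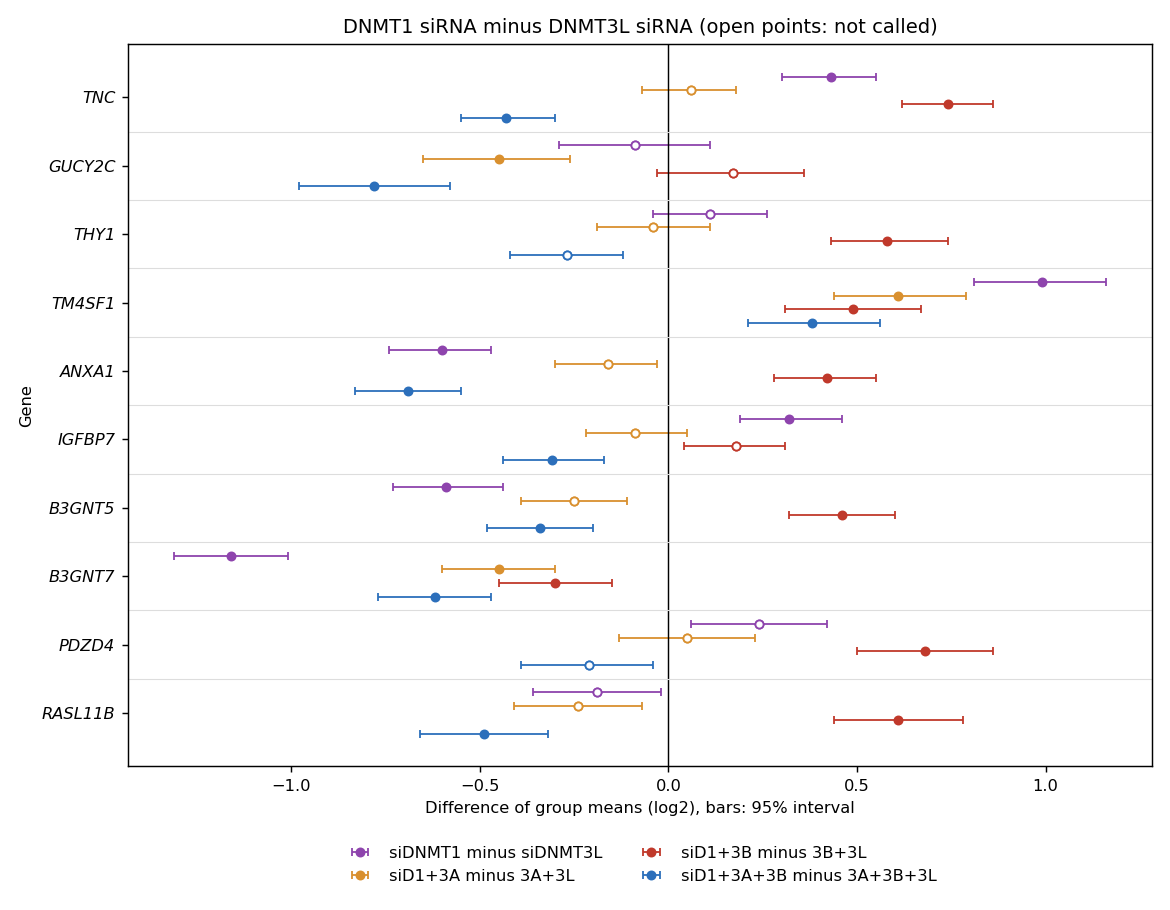
Differences of group means (horizontal axis, log2, with unadjusted 95% intervals) of the 10 genes (vertical axis) between groups with DNMT1 and with DNMT3L siRNA in 4 backgrounds. Filled points passed an adjusted p under 0.05 and open points did not. TM4SF1 lies right of 0 and B3GNT7 left of 0 in all 4, while the red points (with DNMT3B siRNA) and the blue points (with DNMT3A and DNMT3B siRNA) lie on opposite sides of 0 for the other 8 genes.

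The control groups also differed. In siNTC-2 against siNTC-1, which lie in different sets of arrays so that set and control cannot be told apart, 4 of the 10 genes were higher and 5 lower, where 24.2% and 20.5% of all genes were. IGFBP7 was higher in siNTC-2 by 0.94, PDZD4 by 0.64, B3GNT5 by 0.32 and THY1 by 0.26, while GUCY2C (-0.85), TNC (-0.59), ANXA1 (-0.49), RASL11B (-0.39) and B3GNT7 (-0.29) were lower. THY1 was lost without siNTC-1 replicate 1 (0.21, adjusted p = 0.0682) and B3GNT7 without siNTC-2 replicate 1 (-0.21, adjusted p = 0.0588), and TM4SF1 was called lower without siNTC-2 replicate 2 (-0.28, adjusted p = 0.0315).

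Genes that work with the 10, or belong to their families, moved in both directions in siDNMT1 and siDNMT3L against siNTC-1. Of all genes, 9.26% rose and 10.6% fell in siDNMT1 and 9.32% rose and 9.86% fell in siDNMT3L, with medians of -0.03 and -0.02. Of 25 measured partners and receptors, 7 rose and 2 fell in siDNMT1 and 6 rose and 2 fell in siDNMT3L, with medians of -0.05 and 0.00. ITGA5, the integrin subunit that pairs with ITGB1 to bind fibronectin, rose by 0.46 in siDNMT1 and by 0.97 in siDNMT3L, and S100A11, which binds ANXA1, by 0.32 and 0.44. Of 38 measured relatives, 5 rose and 8 fell in siDNMT1 and 4 rose and 3 fell in siDNMT3L. The annexins ANXA4 (0.75 and 0.80) and ANXA5 (0.61 and 0.36) rose with ANXA1, whereas TM4SF18 fell in siDNMT1 (-0.39) and was not called in siDNMT3L (-0.13, adjusted p = 0.161). IGFBP2 rose by 0.34 and 0.37.

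Of 30 genes of glycolipid and poly-N-acetyllactosamine synthesis, 5 rose and 3 fell in siDNMT1 and 5 rose and 0 fell in siDNMT3L. GCNT2, which branches poly-N-acetyllactosamine into the I antigen, rose by 0.86 and 0.72. B4GALT6, which makes the lactosylceramide that B3GNT5 extends, rose by 0.64 in siDNMT3L and was not called in siDNMT1 (0.10, adjusted p = 0.478). Of 34 matrix genes, 5 rose and 7 fell in siDNMT1 and 10 rose and 3 fell in siDNMT3L. The basement membrane genes LAMC1 (0.83 and 0.70) and NID1 (0.86 and 0.76) rose, while COL4A2 (-0.55 and -0.29) and the thrombospondin gene THBS2 (-0.49 and -0.58) fell. Of 16 measured genes listed as surface markers of pluripotent or embryonic carcinoma cells, 6 rose and 2 fell in siDNMT1. In siDNMT3L 5 rose and 1 fell. The hyaluronan receptor CD44 (0.92 and 0.59), the laminin-binding integrin ITGA6 (0.47 and 0.57), the tetraspanin CD9 (0.46 and 0.41) and MCAM (0.47 and 0.42) were higher. ALPL fell in both (-0.32 and -0.20), and CDH1 in siDNMT1 alone (-0.29). The median differences of these 5 lists lay between -0.06 and 0.14. Fibroblast and mesenchyme markers, of which THY1 is commonly counted one, gave 0 higher and 0 lower of 11 in siDNMT1, and 0 higher and 1 lower in siDNMT3L.

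Likeness was measured as the correlation across the 13 group means, among 2067 genes whose group means varied by a standard deviation of at least 0.25. These means share arrays' sets, so r is given also over the 9 groups of the larger set. Closest to the median profile of the 10 genes were the adenylate kinase gene AK4 (r = 0.958, rho = 0.951, and r = 0.972 over 9 groups), ERRFI1, an inhibitor of EGF receptor signalling (r = 0.947, rho = 0.923, and r = 0.942 over 9), and OC90 (r = 0.913, rho = 0.901, and r = 0.903 over 9). For single genes, RASL11B was most like ERRFI1 (r = 0.945 and 0.936 over 9), PDZD4 most like GCNT2 (r = 0.955 and 0.894 over 9) and B3GNT5 most like BRINP1 (r = 0.945 and 0.948 over 9). TM4SF1 was closest to the galectin gene LGALS8 (r = 0.953 and 0.915 over 9) and TNC to OC90 (r = 0.946 and 0.913 over 9). LGALS8 was weak, with group means of 4.39 to 5.32 log2, and by rank its match was looser (rho = 0.835, and 0.700 over 9). The match was looser within the larger set for ANXA1 with NT5C2 (r = 0.947 and 0.752 over 9), GUCY2C with MB21D2 (r = 0.944 and 0.789 over 9), IGFBP7 with RYR3 (r = 0.940 and 0.773 over 9) and THY1 with FLI1 (r = 0.914 and 0.832 over 9). By rank, IGFBP7 and RYR3 were less alike (rho = 0.654, and 0.500 over 9). B3GNT7, the gene that stood apart in siDNMT1, had the weakest best match by r, VSNL1 (r = 0.814 and 0.698 over 9). The median profile itself, each gene centred on its mean, was 0.54 in siDNMT1, 0.52 in siDNMT3L and 0.51 in siDNMT3B, against -0.33 in siNTC-1, and in the larger set 0.32 in 3A+3B+3L, 0.24 in siD1+3B, 0.10 in 3A+3L, 0.03 in siD1+3A, -0.08 in siD1+3A+3B, -0.21 in 3B+3L, -0.40 in 3A+3B and -0.31 in siDNMT3A, against -0.51 in siNTC-2.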

How the data were processed

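The deposited table holds log2 expression values per array feature, 1 column for each of 26 arrays, as the authors deposited it. Log base 2 fits their span (3.04 to 14.87). Partek is named per the submitters' processing notes, with no role or version. Nothing in the sources used here gives the background correction or the normalization. Of 33297 features, 19460 carried 1 gene symbol, 1754 several and 12083 none. The feature with the highest mean was kept for each symbol, which left 18417 genes, with no filter on low values. Groups came from the sample titles.

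With limma 3.58.1 in R 4.3.3, 1 mean for each of 13 groups was fitted over the 26 arrays (lmFit and eBayes, 13 residual degrees of freedom), two-sided, with Benjamini-Hochberg adjustment over all genes and 0.05 as the threshold. The fit was tested on simulated data. The number of arrays limits the precision. The 10 genes, the gene lists and the control for each comparison were chosen with earlier results of these data known. All 10 genes are named. Of each list up to 4 genes with the smallest adjusted p in siDNMT1 or siDNMT3L against siNTC-1 were candidates for naming, and for likeness the gene with the highest r for each of the 10 and the best 3 for their median. For the surface markers, the genes that fell are named as well. Same-numbered arrays of different groups did not deviate together (correlations from -0.26 to 0.19 over 78 pairs of groups, 12% of them over 0.1), so the numbers were not taken as pairs. Alternatives were array weights, quantile normalization, leaving out the 40% of genes with the lowest mean, a variance prior that was trended and robust, a block for the replicate number, the mean of all features of a gene, only the groups compared, other controls and each array left out in turn. Protein sequences and the promoters of GUCY2C, THY1 and IGFBP7 were not used here.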

Additional observations from a re-analysis of the deposited data

Results flagged for a closer look

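The response to a further siRNA was tested for a difference between the DNMT1 and the DNMT3L background (DNMT1 background minus DNMT3L background, log2, limma over 26 arrays), and 11 results passed an adjusted p under 0.05. These tests are made up of differences that chose the genes, so they are not independent of the choice. For added DNMT3B siRNA these were TNC (-0.48, adjusted p = 0.0232) and ANXA1 (-0.53, adjusted p = 0.0251). For added DNMT3A siRNA they were TNC (-1.17), ANXA1 (-1.11), RASL11B (-1.09), GUCY2C (-0.95), PDZD4 (-0.89), THY1 (-0.85), B3GNT5 (-0.80), IGFBP7 (-0.49) and B3GNT7 (-0.32, adjusted p = 0.0376). The TNC and ANXA1 results for DNMT3B and the B3GNT7 result for DNMT3A are the ones lost in most fits without 1 array. For PDZD4 and B3GNT7, DNMT3A siRNA made a called difference beside DNMT1 siRNA (-0.80 and -0.32 in siD1+3A+3B against siD1+3B) and none beside DNMT3L siRNA (0.09 and 0.01 in 3A+3B+3L against 3B+3L). The B3GNT7 call in siD1+3A+3B against siD1+3B was lost whichever array was left out (differences from -0.34 to -0.29). It was also lost with those groups fitted alone (adjusted p = 0.146 in limma).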

How the results depend on the processing

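Over the tested values of the 10 genes, 75 were called and 65 were not. Quantile normalization and array weights ended none of the 75 calls, and a replicate block changed none of the 75 or the 65, for example with 9 genes higher in siDNMT3B than in siNTC-1. The mean of all features of a gene ended none either. Each of the 10 genes had 1 feature, so that setting could not change their differences. Calls were gained too: THY1 in siD1+3A+3B against 3A+3B+3L (-0.27) with the filter on dim genes, quantile normalization, the trended and robust prior and array weights (adjusted p from 0.0102 to 0.0321), IGFBP7 in 3A+3B+3L against 3B+3L and in siD1+3B against 3B+3L with the filter, quantile normalization and array weights (0.17 to 0.21), B3GNT5 in siD1+3A against 3A+3L with quantile normalization (-0.28) and PDZD4 in siDNMT1 against siDNMT3L with the filter (0.24). The filter on dim genes removed TM4SF1, which left 0 genes higher in siD1+3A than in 3A+3L and 0 in siD1+3A+3B than in 3A+3B+3L (1 each without the filter). In siD1+3A+3B against siD1+3A, 2 genes were lower with that filter, with a trended and robust prior and with array weights, since IGFBP7 joined ANXA1. With array weights 1 gene, ANXA1, was lower in 3A+3B than in siDNMT3A. Fitting only the groups compared, which leaves few residual degrees of freedom, ended 21 calls: 0 genes were lower in siD1+3A+3B than in siD1+3A, 0 higher in 3A+3B+3L than in 3A+3L, 1 lower in siD1+3A+3B than in siD1+3B, 1 higher in siDNMT1 than in siDNMT3L, 0 higher and 0 lower in siD1+3A than in 3A+3L, 0 higher and 2 lower in siD1+3A+3B than in 3A+3B+3L, and 0 lower in the test of DNMT3B siRNA between backgrounds. For siDNMT3A, siNTC-1 as control gave 4 lower genes and the mean of both controls gave 2, against 0 with siNTC-2; GUCY2C (-0.39), ANXA1 (-0.17) and PDZD4 (0.47) took the opposite sign with siNTC-1, and the cause was not tested. Without 1 array the count of genes was 0 higher in every fit of 3A+3B+3L against 3A+3L and of siD1+3A+3B against 3A+3B+3L, 0 to 2 lower in the test of DNMT3B siRNA between backgrounds, 0 to 1 lower in siD1+3A against 3A+3L, in siD1+3B against 3B+3L and in siD1+3A+3B against siD1+3A, 4 to 5 lower in siD1+3A+3B against 3A+3B+3L, and 3 lower in every fit of siD1+3A+3B against siD1+3B. Where 1 array was left in a group, it is assumed to vary like the other groups. In all, 65 fits of a called value without 1 array lost the call and 279 kept it. Background signal limits what weak genes such as TM4SF1 can show, and no detection values were given.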
